A study of Xenopus tropicalis with 12 samples.

Results

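Among the 4 groups compared, the genes described here were highest in the wild type (WT) hind limb of Xenopus tropicalis tadpoles without thyroid hormone (T3). They were lower both after T3 treatment of WT tadpoles and in untreated tadpoles that lack thyroid hormone receptor α (TRα). Members were chosen on mean CPM, the counts relative to a library total that was adjusted by its TMM factor, with 0.1 added before log2. A member had at least 2 CPM in WT without T3, a log2 change of -1.5 or less with T3 in WT, a log2 difference of -1.5 or less in TRα (-/-) without T3, and a T3 change in TRα (-/-) between -1 and 1. The rule found 117 genes among 14320 tested. All 4 group means entered it, so the falls described below are what chose the genes, and no test is drawn from them.

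Hind limb RNA was taken from WT tadpoles without T3, WT tadpoles given 10 nM T3 for 18 h, TRα (-/-) tadpoles without T3 and TRα (-/-) tadpoles given the same T3 treatment. All were at stages 52 to 54 per the labels, and by the same labels both genotypes had common parents. The methods of the study differ here: WT frogs were bought from a supplier and TRα (-/-) came from crosses of TRα (+/-) frogs, so a shared parentage of the pools is uncertain. The knockout keeps the TRβ gene. Each group had 3 libraries, described by the labels as technical replicates of a single RNA sample merged from several tadpoles. A group is therefore 1 RNA pool, and SDs and SEs below reflect the spread between libraries of a pool, not between tadpoles. Whatever else set the pools apart cannot be told apart from T3 and genotype.

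T3 acts through TRs, nuclear receptors that pair with retinoid X receptors on T3 response elements. At genes that T3 induces, the receptor without hormone recruits corepressors such as N-CoR and SMRT and holds expression down, and with hormone it recruits coactivators. Loss of the receptor and addition of hormone can then move the same gene the same way, upward. The genes here moved together in the opposite direction, downward. Hind limb growth is among the first responses to T3 in tadpole metamorphosis, and limb RNA at these stages comes from a mixture of skin, mesenchyme, early cartilage, muscle, blood and nerve. In such bulk RNA, fewer cells of a type and less RNA per cell cannot be told apart. The deposited IDs could not be paired with gene symbols, so the knocked-out gene, cell type markers and pathway lists were not checked, and no role is given for any member. Positions are those of the file, on scaffolds of the JGI assembly the authors counted on.

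Total counts per library ran from 32649742 to 52430305. Pairs of libraries from one pool gave chi-square values of 1.87 to 10.8 per degree of freedom, more than sampling noise. Both values above 10 involved replicate 2 of WT with T3, which was also the deepest library, at 52430305 counts. Depth itself can raise this value. Without that library the rule found 113 genes, all of them among the 117. CPM depend on the scaling: total counts alone, without TMM factors, shifted the median over all genes by 0.52 log2 units in the T3 comparison of WT, 0.12 in that of TRα (-/-) and -0.49 in the genotype comparison with T3. For WT with T3 against TRα (-/-) without T3 the shift was 0.61. With total counts alone 110 genes met the rule, and 86 of them were among the 117.

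The falls were large and were seen in each library. Summed over the 117 members, expression was 14213, 14138 and 14049 CPM in the 3 libraries of WT without T3. It was 1507, 1535 and 1526 CPM in WT with T3. Untreated TRα (-/-) libraries had 4034, 4089 and 4188 CPM, and those with T3 had 3104, 3067 and 3090 CPM. The sum was thus highest in untreated WT and lowest in WT with T3, and no library of one pool overlapped another pool. As a share of all counts, members took from 1.29% to 1.31% in WT without T3 and from 0.202% to 0.205% in WT with T3. The 4 most abundant members held 53.0% of the sum in WT without T3 and 34.2% of it in WT with T3.

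Most members kept a fraction of their untreated WT level rather than going silent. With T3 in WT the median member was at 13.8% of its level in WT without T3, with quartiles of 8.38% and 23.7%. Untreated TRα (-/-) had a median of 28.7%, with quartiles of 24.5% and 32.5%. TRα (-/-) with T3 had a median of 19.8%, with quartiles of 17.3% and 26.6%. No member had 0 counts in every library of a pool. All WT libraries without T3 were above all libraries of each other pool in 117 of 117 members, as the rule all but requires.

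**Figure D1:**
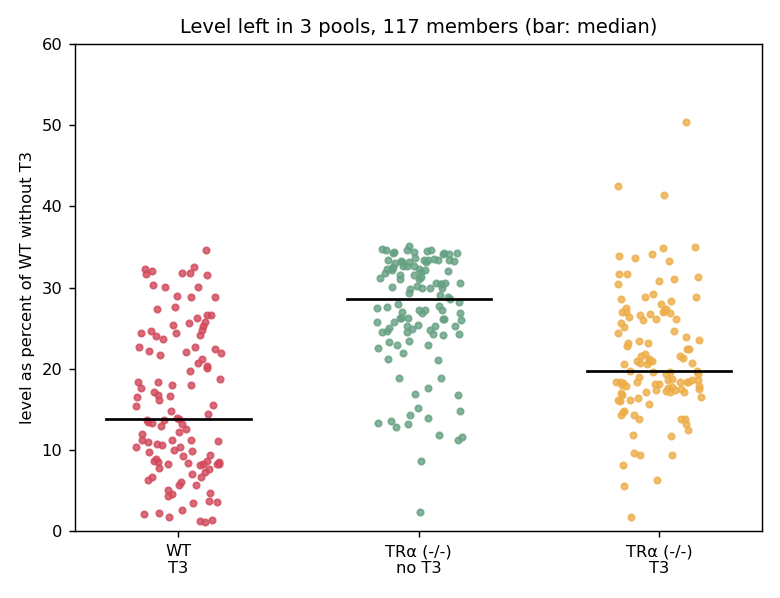
Mean level of each of the 117 members in the other 3 pools as percent of its mean level in WT without T3 (vertical axis, percent); points are members and bars are medians. The medians are 13.8% for treated WT, 28.7% for untreated and 19.8% for treated TRα (-/-), and the rule sets the upper edge of the first and second clouds.

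Under T3 in WT the members' log2 change had a median of -2.77 and ran from -5.89 to -1.51. For comparison, the median of all tested genes was -0.05. By edgeR's quasi-likelihood test (adjusted p under 0.05 and 2-fold or more), T3 lowered 25.1% of tested genes in WT and raised 22.8%. All 117 members were called lower. The rule required their falls and set no p-value, so the full count also rests on the small spread between libraries of a pool. The fall was 4-fold or more in 89 members and 8-fold or more in 46. The log2 difference of untreated TRα (-/-) from untreated WT had a median of -1.75 and ran from -4.12 to -1.501, against a median of 0.01 over all tested genes. Here 7.35% of tested genes were called lower, again with all 117 members, and 13.0% higher. The difference was 4-fold or more in 29 members and 8-fold or more in 3. Both falls were 4-fold or more in 24 members. The 2 comparisons share the WT libraries without T3, so a gene that is high in that pool for any reason enters both.

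The genotype limit is where the members crowd. There were 30 members within 0.1 log2 units inside it and 30 genes within 0.1 outside that met every other condition. The nearest values were -1.501 inside and -1.498 outside. At the T3 limit in WT only 3 members and 1 outside gene lay as close, with nearest values of -1.513 and -1.496. The member with the lowest level in WT without T3 had 2.01 CPM, and the nearest gene left out for its level had 1.99 CPM. When genes were chosen on the libraries of 2 replicate numbers, 77 to 86 of the 115 or 116 chosen met every limit in the libraries of the number left out, which is from 66.4% to 74.8%. In those left-out libraries all of the chosen genes still fell in both comparisons by some amount, the weakest genotype value being -0.79. These libraries come from the same pools, so this speaks of library noise alone.

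**Figure D2:**
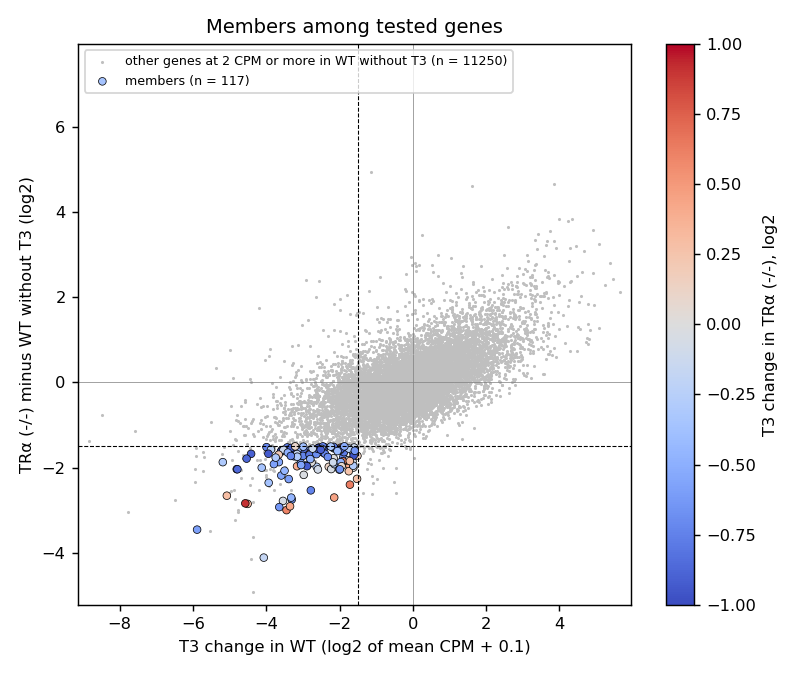
T3 change in WT (horizontal axis) against the difference between TRα (-/-) and WT without T3 (vertical axis), both in log2 of mean CPM + 0.1, for 11250 other genes (grey) and the 117 members (coloured by their T3 change in TRα (-/-)). Dashed lines are the limits of -1.5; uncoloured genes beyond both limits fell or rose by more than 1 log2 unit with T3 in TRα (-/-). Both axes use the WT libraries without T3.

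The rule narrowed the genes in steps. At 2 CPM or more in WT without T3, 1723 genes had a T3 fall of the required size and 245 had a genotype fall of that size. Both were met by 205 genes. Of these, T3 in TRα (-/-) took 81 down by more than 1 log2 unit and 7 up by more than 1, and the remaining 117 are the members. The nearest values at the lower limit were -0.996 inside and -1.02 outside, and at the upper limit 0.908 and 1.04. Both falls use the WT libraries without T3, so no overlap is read from these counts.

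The T3 fall was the larger in 99 of the 117 members and the genotype fall in 18. On a log2 scale from WT without T3 (0) to WT with T3 (1), TRα (-/-) without T3 lay at a median of 0.67, with quartiles of 0.55 and 0.87. TRα (-/-) with T3 lay at a median of 0.82, with quartiles of 0.66 and 1.02. Ordered by mean CPM, 66 members had WT without T3 highest, then TRα (-/-) without T3, then TRα (-/-) with T3, and WT with T3 lowest. In 17 the last 2 were exchanged and in 16 the middle 2 were exchanged. TRα (-/-) without T3 was second highest in 83 members, and WT with T3 was lowest in 82. These orders and positions rest on the TMM scaling. Scaled by total counts alone, WT with T3 was above TRα (-/-) without T3 in 46 of the members, against 18 under TMM. TRα (-/-) with T3 was then above WT with T3 in 56, against 85 under TMM.

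**Figure D3:**
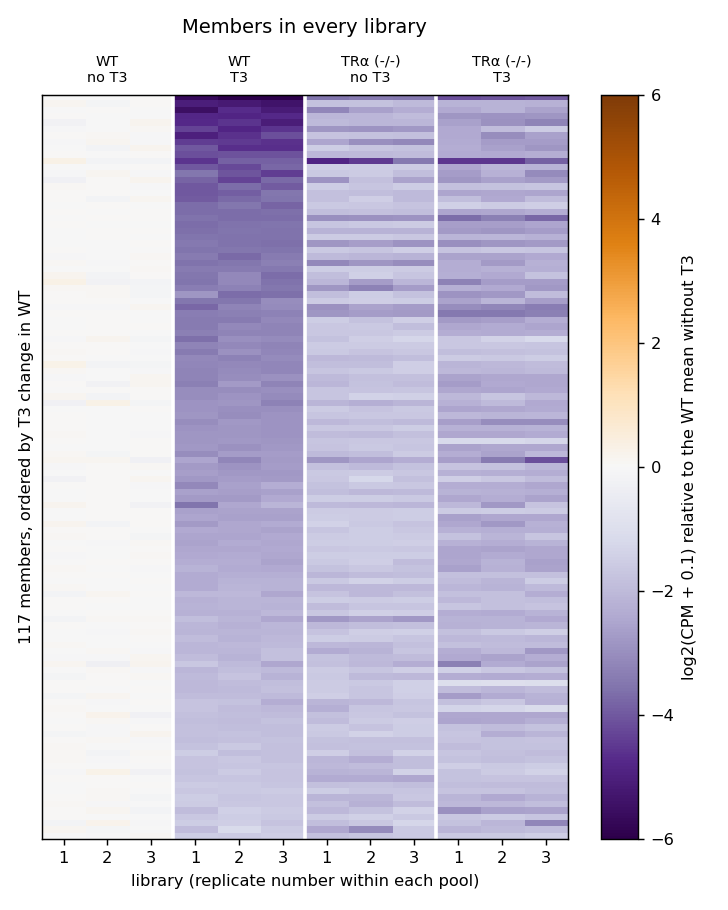
The 117 members (rows, ordered by their T3 change in WT) in each of the 12 libraries (columns, numbered by replicate within each pool). Colour is log2(CPM + 0.1) relative to the mean of WT without T3, from purple (lower) to orange (higher). WT with T3 is darkest in the upper rows, and the 2 TRα (-/-) pools are paler in most rows. Changes of the pool mean reach -5.89, and single libraries can lie lower.

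A group of 25 members reached nearly one level in the 3 other pools, all pairs of pool means lying within 0.5 log2 units. An example, chosen after its values were seen, is the gene on scaffold GL172785.1 from 59494 to 66219 (- strand, 12 exon blocks). Its libraries had 36.0, 36.9 and 34.3 CPM in WT without T3. WT with T3 had 9.55, 9.97 and 10.1 CPM, untreated TRα (-/-) 10.1, 9.97 and 9.71 CPM, and treated TRα (-/-) 10.5, 10.0 and 10.3 CPM. The 3 lower pools overlapped each other and lay well under untreated WT. With a width of 1 log2 unit in place of 0.5, 64 members had the 3 pools together.

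In TRα (-/-), where the rule allows T3 to move a member by at most 1 log2 unit either way, most members were still slightly lower with T3. Mean CPM were lower with T3 in 92 members and higher in 25. The median log2 change was -0.41, with quartiles of -0.69 and -0.04, against -0.02 over all tested genes. Scaled by total counts alone, the median was -0.28 and the median of all genes 0.10. All libraries with T3 were below all libraries without T3 in 67 members and above them in 12, against 38.0% and 37.2% of all tested genes. At an adjusted p under 0.05 and 2-fold or more, 2 members were called lower, where 9.64% of all tested genes were, and 1 was called higher, where 7.14% were. Single libraries decide these small counts: without any 1 of the 6 TRα (-/-) libraries 4 to 7 members were called lower, and without replicate 3 of TRα (-/-) with T3 0 were called higher. At an adjusted p under 0.05 with no fold threshold, 67 were called lower and 11 higher, against 37.9% and 37.1% of tested genes. The rule used this contrast, so the counts describe the members only.

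With T3 in both genotypes, members were more often higher in TRα (-/-) than in WT. The rule does not name this difference, but both means entered it and the low level in WT with T3 was selected, so it too is a description. The log2 difference had a median of 0.45 and ran from -1.07 to 3.01, with 85 members above 0 and 32 below. All libraries of TRα (-/-) with T3 were above all of WT with T3 in 68 members and below them in 12, against 38.0% and 38.3% of all tested genes. The edgeR test called 38 members higher in TRα (-/-) with T3, where 11.4% of tested genes were called, and 1 lower, where 3.77% were. With no fold threshold the adjusted p called 70 higher and 12 lower, against 37.6% and 37.7% of tested genes. The direction of the median rests on the scaling, since total counts alone gave a median of -0.04, with 56 members above 0, 20 called higher and 8 lower. The shares of tested genes above are those under TMM, and the shares called under total counts alone were not counted. Relative to the median of all genes the members' median was 0.46 under both scalings.

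The member called lower, named by position after its values were seen, lies on GL172746.1 from 1992110 to 1993841 (+ strand, 3 exon blocks). It had 6.81, 7.13 and 5.93 CPM in WT without T3 and 1.66, 2.42 and 2.20 CPM with T3. The knockout pools had 1.55, 1.84 and 2.45 CPM without T3 and 0.791, 0.995 and 1.06 CPM with T3. It was thus lowest in TRα (-/-) with T3, whose libraries overlapped no other pool.

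WT with T3 and TRα (-/-) without T3, the 2 pools in which the falls were required, often differed in depth. Their means lay within 0.5 log2 units of each other in 39 members. Both means entered the rule, so the counts of calls below are again a description of the members. WT with T3 was lower in 99 members, with a median log2 difference of -0.88, and its libraries lay below all of TRα (-/-) without T3 in 90 members and above them in 7, against 43.8% and 41.4% of all tested genes. The edgeR test called 53 members lower in WT with T3, where 21.3% of tested genes were called, and 0 higher, where 14.6% were (0 also by DESeq2). With no fold threshold the adjusted p called 88 members lower, against 43.9% of tested genes, and 8 higher, against 41.2%. At an unadjusted p under 0.05, 8 members were higher, against 41.5% of tested genes. Total counts alone gave a median of -0.30, with 28 called lower and 4 higher. The shares of all tested genes called under that scaling were not counted.

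**Figure D4:**
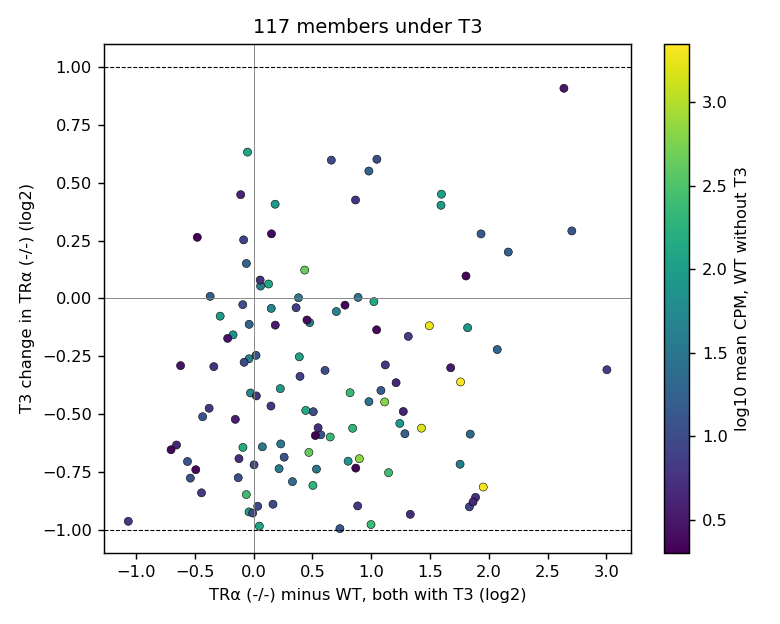
Difference between TRα (-/-) and WT with T3 (horizontal axis, log2) against the T3 change in TRα (-/-) (vertical axis, log2) for the 117 members, coloured by log10 of mean CPM in WT without T3. Dashed lines are the rule's limits of -1 and 1. Of the members, 85 lie to the right of 0 and 92 below 0; scaled by total counts alone, 56 lie to the right of 0.

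Members spanned a wide range of levels. In WT without T3 their mean CPM ran from 2.01 to 2220, with a median of 13.2 and quartiles of 6.05 and 79.9. Of the 117, 24 had 100 CPM or more, 46 had 10 to 100 and 47 had 2 to 10. The best rank of a member among all tested genes by CPM was 104 in WT without T3 and 478 in WT with T3. The number of members among the 500 highest genes by CPM was 15 in untreated WT, 1 in treated WT, 6 in untreated TRα (-/-) and 4 in treated TRα (-/-). Median log2 changes with T3 in WT were -2.89 in the highest tier, -2.48 in the middle one and -2.74 in the lowest. Median genotype differences without T3 were -1.65, -1.75 and -1.80 in the same order. With T3 the median difference between TRα (-/-) and WT was 0.74, 0.43 and 0.18, and it was above 0 in 20 of 24, 34 of 46 and 31 of 47 members. Across members, log2 level in WT without T3 had a Pearson correlation of 0.17 and a Spearman correlation of 0.17 with this last difference, and of -0.10 and -0.08 with the T3 change in WT (n = 117 genes, measured in the same libraries). Called higher in TRα (-/-) with T3 were 8 of 24, 13 of 46 and 17 of 47 members, against 11.4% of tested genes. The 0.1 CPM added before log2 also shrinks differences most in the lowest tier.

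The most abundant member was ENSXETG00000021508, on GL172853.1 from 537686 to 548765 (+ strand, 14 exon blocks, 2839 bp of exon). It had 2228, 2199 and 2234 CPM in WT without T3 and 123, 128 and 130 CPM with T3. The TRα (-/-) libraries had 538, 553 and 571 CPM without T3 and 435, 417 and 441 CPM with T3. The 4 pools did not overlap, and those with T3 were the lower in each genotype. Fitted log2 changes were -4.13 ± 0.04 (SE) for T3 in WT, -2.003 ± 0.033 for genotype without T3, -0.36 ± 0.03 for T3 in TRα (-/-) and 1.76 ± 0.03 for genotype with T3. Here and below, SE is an approximation, the absolute log2 change divided by the square root of its quasi-likelihood F. It can be too small where a pool has few reads.

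The next 3 members by level, given by position, showed the same order of pools. The gene on GL173650.1 from 30656 to 38837 (- strand, 8 exon blocks) had 1973 ± 26 CPM in WT without T3 and 70.4 ± 1.5 CPM with T3 (SD, n = 3). Knockout levels were 480.5 ± 26.9 CPM without T3 and 273 ± 6.5 CPM with T3. Per kilobase of exon it was the highest member, at 996 CPM per kb in WT without T3. The gene on GL172770.1 from 588106 to 597894 (- strand, 20 exon blocks) went from 1797 ± 22 to 198 ± 6.2 CPM with T3 in WT. The knockout pools were almost level, at 606 ± 1.6 CPM without T3 and 558 ± 12 CPM with T3. The gene on GL173097.1 from 35277 to 47496 (- strand, 22 exon blocks) went from 1498 ± 30 to 125 ± 1.7 CPM with T3 in WT, and from 497 ± 15 to 337 ± 14 CPM in TRα (-/-).

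Among members with 5 CPM or more in WT without T3, ENSXETG00000012110 had the deepest genotype fall. It lies on GL172810.1 from 268 to 8754, close to the start of that scaffold (+ strand, 6 exon blocks, 921 bp of exon). It had 21.5, 21.4 and 21.8 CPM in WT without T3 and 0.333, 0.232 and 0.233 CPM with T3. TRα (-/-) levels were 1.74, 1.96 and 1.91 CPM without T3 and 1.14, 1.22 and 1.28 CPM with T3. The pools did not overlap. The WT libraries with T3 held 12 to 16 counts each, and the pooled counts, 2205 against 44, gave a level 82.7-fold higher without T3 (95% exact binomial interval 61.4 to 114, counting error only). Here and below, such intervals do not allow for the choice of the genes on these same values, and they test nothing. Fitted log2 changes were -6.35 ± 0.11 (SE) for T3 in WT, -3.52 ± 0.09 for genotype without T3 and -0.63 ± 0.14 for T3 in TRα (-/-). For T3 in WT this ± value is tighter than the counting interval above allows, so it understates the error.

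The member with the largest rise with T3 in TRα (-/-) was ENSXETG00000014752, on GL172691.1 from 185024 to 200677 (- strand, 4 exon blocks, 2594 bp of exon). It had 3.07, 3.12 and 3.40 CPM in WT without T3, and its WT libraries with T3 held 3, 1 and 2 counts. TRα (-/-) libraries held 0.362, 0.348 and 0.370 CPM without T3 and 0.519, 0.746 and 1.03 CPM with T3. TRα (-/-) libraries with T3 were thus above those without T3, although their own spread was wide. Pooled counts of 328 and 6 put WT without T3 90.2-fold above WT with T3 (95% exact binomial interval 41.0 to 248, counting error only). The log2 change with T3 in TRα (-/-) was 0.91 by the rule and 1.04 ± 0.29 (SE) in the fit, where leaving out single libraries gave 0.81 to 1.27. The value of 0.81 came without replicate 3 of TRα (-/-) with T3 and is under the 2-fold threshold.

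On the log2 scale of the rule, ENSXETG00000034253 had the largest excess in TRα (-/-) under T3. It lies on GL172862.1 from 1463050 to 1475880 (- strand, 17 exon blocks, 2927 bp of exon). It had 7.76, 6.69 and 7.25 CPM in WT without T3 and 0.125, 0.101 and 0.0778 CPM with T3, from 4 to 7 counts per library. Knockout libraries had 1.97, 1.995 and 1.74 CPM without T3 and 1.53, 1.54 and 1.47 CPM with T3. Its level in TRα (-/-) with T3 was therefore above that in WT with T3 in every library, by 3.01 on the log2 scale of the rule and 3.87 ± 0.24 (SE) in the fit. In the fit ENSXETG00000014752 had a larger value, 4.27 ± 0.41 (SE), with at most 3 counts per WT library with T3. With so few counts in WT with T3, the ± values of these genes for this difference are smaller than counting error. For ENSXETG00000034253, the pooled counts compare the 2 WT pools. Pooled counts of 739 and 17 put WT without T3 71.7-fold above WT with T3 (95% exact binomial interval 44.5 to 124, counting error only).

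**Figure D5:**
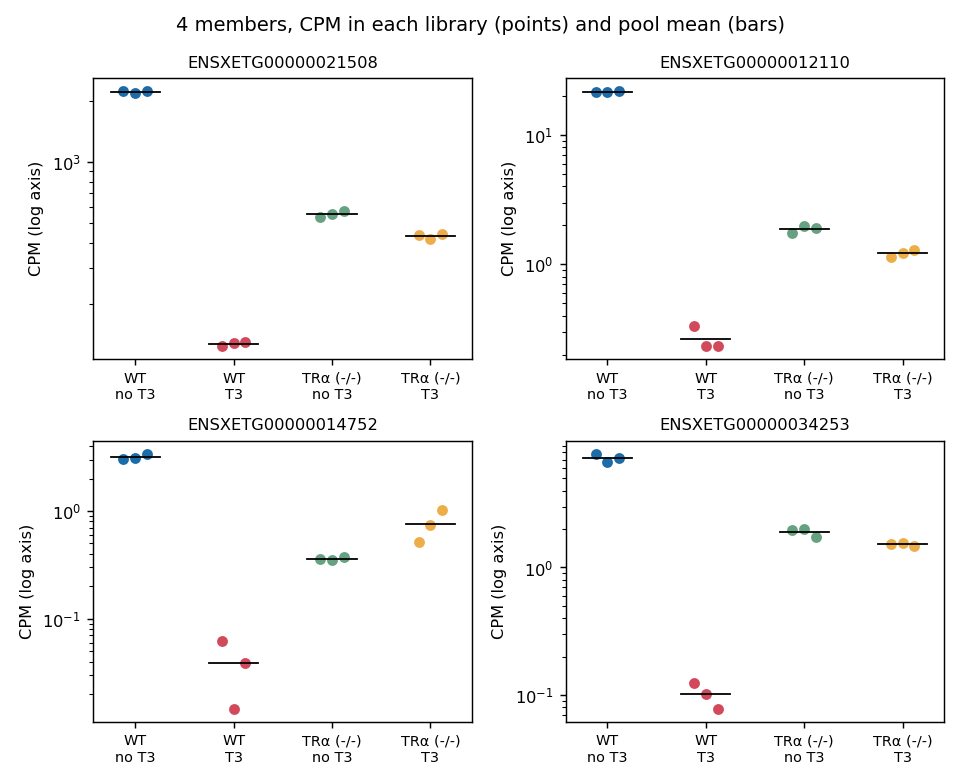
CPM (vertical log axis) of 4 members in each library (points) with the pool mean (bars), for WT and TRα (-/-) without and with T3. ENSXETG00000014752 alone of the 4 has higher points with T3 than without T3 in TRα (-/-); in all 4 the WT libraries with T3 are lowest.

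Other members were singled out by position after their values were seen. The deepest genotype fall of all was that of a weakly expressed gene on GL174302.1 from 2263 to 6092 (- strand, 4 exon blocks). It had 109, 78 and 97 counts in untreated WT and 1, 7 and 5 in treated WT, then 0, 1 and 6 in untreated and 1, 1 and 3 in treated TRα (-/-). Untreated WT was 38.6-fold above TRα (-/-) without T3 (95% exact binomial interval 18.5 to 96.8, counting error only). The 3 other pools overlapped near the limit of detection. The gene on GL172686.1 from 2127476 to 2135521 (- strand, 3 exon blocks) fell more with genotype than with T3. It went from 125 ± 2.6 CPM in WT without T3 to 23.6 ± 1.0 CPM in TRα (-/-) without T3 (SD, n = 3), and had 38.0 ± 0.60 and 36.7 ± 0.73 CPM in WT and TRα (-/-) with T3. It overlaps another annotated gene, and since strand handling in the counting is not stated, reads of the pair may not be separable. The gene on GL172989.1 from 1177345 to 1193011 (+ strand, 27 exon blocks) combined a high level with deep falls in both comparisons. It went from 145 ± 1.5 CPM to 14.6 ± 0.48 CPM with T3 in WT and had 21.5 ± 1.1 and 13.7 ± 0.74 CPM in TRα (-/-) without and with T3.

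Gene structure, which the rule did not use, is given here as a description with no test. Exon length had a median of 1768 bp (quartiles 1149 and 2529) in members and 1761 bp in all tested genes, or 1895 bp in the 11367 tested genes at 2 CPM or more in WT without T3. Members had a median of 11 exon blocks, against 9 and 10 in those sets, and ran from 1 to 49. A single exon block was found in 4 members, or 3.42%, against 4.39% of all tested genes and 2.53% of those at 2 CPM or more. Length under 1000 bp was found in 26 members, or 22.2%, against 19.2% and 15.8% in the same sets. The + strand held 69 members, or 59.0%, against 49.4% and 49.1%. The span of 4 members, or 3.42%, overlapped that of another gene, against 5.03% and 4.79%. None of the 23 tested mitochondrial genes was a member.

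Members were scattered over the assembly. They lay on 105 scaffolds, 12 of which held 2 members and none more. Only 4 members, in 2 pairs, were next to another member among tested genes. In one pair ENSXETG00000034253 is followed after 18316 bp, on the same strand, by a member from 1494197 to 1513810 whose log2 changes were -3.39 for T3 in WT and -2.27 for genotype without T3, at 2.01 CPM in WT without T3. The other pair lies on GL172907.1, from 1384125 to 1520227 and from 1546414 to 1551696, both on the + strand. Their log2 changes were -1.95 and -1.75 for T3 in WT and -1.56 and -1.55 for genotype without T3. Among the 192 tested genes next to members and not members themselves, T3 in WT lowered 53, or 27.6%, against 25.1% of all tested genes. Genotype without T3 lowered 17, or 8.85%, against 7.35%, and both lowered 14, or 7.29%, against 5.75%.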

How the data were processed

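Poly-A RNA libraries (TruSeq) were sequenced as paired-end reads; the authors mapped them to the Ensembl JGI assembly of X. tropicalis with STAR and assigned reads to the exons of each gene with featureCounts. The labels' processing notes give STAR 2.5.3a and featureCounts 1.4.6-p3, and the methods of the study give other versions. Unnormalized whole-number counts were deposited. Strand and multi-mapping settings are not given in the sources used here, so overlapping or near-identical genes are uncertain. The deposited length column, in bp (an "other" unit), is the summed exon length.

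Of 19921 genes, 2363 had no count in any library and filterByExpr kept 14320. Counts were scaled by TMM and fitted with edgeR 4.0.16 in R 4.3.3 (glmQLFit, glmQLFTest) over all 12 libraries, 1 mean per group. A call is a Benjamini-Hochberg adjusted p, over all tested genes, under 0.05 with 2-fold or more; p-values measure the spread between libraries of a pool (common BCV 0.0421), not between tadpoles. The fit and the rule were run on simulated counts in which chosen genes fell 4-fold in each other group, with a BCV of 0.0421. Falls near the rule's limits, falls at the lowest levels and spread between pools were not simulated. The simulation therefore does not speak to those. Alternatives were DESeq2 1.42.0 (the study's tool), its size factors, total counts alone, other filters, other rule limits, a replicate block, summed pools with an assumed spread, and leaving out each library; library sizes kept from before the filter were added after seeing the data.

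The name table given has an Ensembl ID in 0 entries, so symbol lists were not used. Without symbols, 4 IDs were named, by values on the scale of the rule. They are the member highest in WT without T3, the deepest genotype fall at 5 CPM or more, the largest T3 rise in TRα (-/-) and the largest genotype difference with T3. Members and lists were chosen with earlier results of these data known.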

Additional observations from a re-analysis of the deposited data

Results flagged for a closer look

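The T3 change differed between genotypes, by the interaction term of the edgeR fit (the knockout's T3 change less the WT's), in 115 of the 117 members, where 17.7% of all tested genes had such a call in that direction. The rule requires a fall of at least 1.5 log2 units in WT and a change of at most 1 in TRα (-/-), so it fixes the sign, and the count describes the selection. The 2 members without a call had fitted interactions of 0.57, on GL172746.1, and 0.99, on GL172853.1 from 1650872 to 1662122. They missed the 2-fold threshold only. With no fold threshold the adjusted p called all 117 members, against 39.4% of tested genes. The interaction was 3.76 for ENSXETG00000021508, 5.72 for ENSXETG00000012110, 7.41 for ENSXETG00000014752 and 5.80 for ENSXETG00000034253, in log2 units. For the last 2 the WT libraries with T3 held at most 7 counts each, so these values depend on few reads.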

How the results depend on the processing

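The member count was 438 with fall limits of -1, 24 with limits of -2, and 63 with the T3 change in TRα (-/-) held within 0.5. It was 116 with DESeq2 size factors, 94 with 10 counts in every library, 85 with 1 CPM added in place of 0.1 (65 of them members) and 111 to 125 over 15 sets of libraries left out.

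Counts of members called moved under several settings. The shares of all tested genes called were counted for the main fit alone, with and without the fold threshold. For the other settings below they were not counted, so those counts of members have no background and describe the members only. Total counts alone gave 0 members lowered by T3 in TRα (-/-), 20 higher and 8 lower for genotype with T3, and 28 lower and 4 higher for WT with T3 against TRα (-/-) without T3. It turned the median for genotype with T3 to -0.0357 (fitted values) and took 29 of the 117 members over the T3 limit in WT. Summed pools with a BCV of 0.4 assumed gave 75 lowered by T3 in WT, 2 lower in TRα (-/-) without T3, 0 either way for T3 in TRα (-/-), 2 higher and 0 lower for genotype with T3, 7 lower for WT with T3 against TRα (-/-) without T3, and 6 for the interaction. How many members pass thus depends on a spread between pools that was not measured. The adjusted p alone gave 67 lower and 11 higher for T3 in TRα (-/-), 70 higher and 12 lower for genotype with T3, and 88 lower and 8 higher for WT with T3 against TRα (-/-) without T3. With 10 counts in every library, which tests fewer genes, T3 in TRα (-/-) lowered 4 members and raised 0.

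Leaving out each library gave 2 to 7 members lowered and 0 to 1 raised by T3 in TRα (-/-), 35 to 39 higher and 1 to 2 lower for genotype with T3, 52 to 55 lower and 0 to 1 higher for WT with T3 against TRα (-/-) without T3, and 114 to 116 for the interaction. The lowered count was 5, 4 and 4 without replicates 1, 2 and 3 of TRα (-/-) without T3, 5, 6 and 7 without those of TRα (-/-) with T3, and 2 without any WT library, and the rule's limit of 1 lies beside the 2-fold threshold.

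Libraries that share a replicate number were not treated as pairs, since the correlation of their departures from the pool means ran from -0.14 to 0.19 and was over 0.1 in 3 of 18 cases. With the replicate block, 38 members were higher and 1 lower for genotype with T3, and 115 had the interaction call. Apart from the assumed BCV, and with ENSXETG00000014752 and ENSXETG00000034253 not tested under 10 counts in every library, the 4 named members kept the direction of all 6 contrasts in the fits run. They kept their 2-fold calls too, except that ENSXETG00000014752 lost its call for T3 in TRα (-/-) without replicate 3 of TRα (-/-) with T3 (log2 change 0.81). T3 in TRα (-/-) for ENSXETG00000034253 passed the adjusted p without replicate 3 of TRα (-/-) without T3 (log2 change -0.38).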
